A study of Mus musculus with 6 samples.

Results

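The genes described here are the transcription factor ATF4, its partners and a set of its known target genes in the stress response and in amino acid supply, measured in mouse embryonic stem cells on their way to neural fate. The list holds 35 genes, chosen by name, and each was represented by its brightest probe set annotated to that symbol alone. A probe set was found for 34 of them, out of 18193 genes with such a probe set in all, and no probe set of Pycr1 was used here. All 34 passed the filter on dim signals and were tested among 14187 genes. The lowest of the 34 was Slc7a11, at signals of 48.6 to 83.5 against a filter limit of 19.5, and the other 33 lay between 169.9 and 7667.

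Geminin knockdown (GemKD) cultures and uninduced controls were compared after 2 days of neural differentiation in the serum-free medium N2B27. All cells derived from the line E14TG2a, whose genetic background is 129P2. Controls and GemKD cultures alike carried a doxycycline (Dox) inducible, microRNA-embedded hairpin (shRNAmir) that targets Geminin. GemKD cultures received Dox (500 ng, with no volume stated), and controls received none. Each of 3 independent experiments gave 1 GemKD and 1 control array: experiments 1 and 3 (E1 and E3) used the line with shRNAmir 11, and experiment 2 (E2) the line with shRNAmir 9. The labels do not say whether each line is a single clone. Every GemKD culture had Dox and every control had none, so Dox and the knockdown cannot be told apart. Total RNA was hybridised to Affymetrix Mouse Genome 430 2.0 arrays, whose median signal was between 59.3 and 60.9. Precision is limited by having 6 arrays. Gmnn, the gene of Geminin, carried 27.6%, 48% and 36.7% of its control signal in the GemKD arrays of E1, E2 and E3.

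ATF4 is the central transcription factor of the integrated stress response. Kinases that sense amino acid shortage, unfolded protein in the endoplasmic reticulum (ER), heme shortage or double-stranded RNA phosphorylate the initiation factor eIF2, which lowers general translation while the Atf4 mRNA is translated better, so that its mRNA level alone does not report its activity. ATF4 pairs with C/EBP family members and switches on amino acid transporters and biosynthetic enzymes, and under lasting stress also Ddit3 (CHOP), Trib3 and Chac1. Mitochondrial stress also feeds into ATF4, and Dox is known to inhibit mitochondrial translation in addition to its use as an inducer.

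The known binding element of ATF4 with its C/EBP partners shares the letters TGATGNAA, read as TTNCATCA on the other strand. These letters were searched on both strands in the RefSeq promoter windows of build GRCm38.p6, from 250 bases before to 50 bases after each annotated transcript start. Of 30 members with a window, 10 held a match: Atf3, Nupr1, Chac1, Trib3, Herpud1, Vldlr, Slc7a11, Slc1a4, Asns and Pycr1. That is 33.3% of these members against 4.51% of 27025 genes, and since some members are known as ATF4 targets through such elements, the excess is a description only. The match of Trib3 begins at base 15 after the transcript start and is not shown, nor are those of Vldlr, Slc1a4 and Pycr1. The other members with a match are shown 5′ to 3′ on the strand of the gene, with the matching letters in capitals, each ending before the transcript start.
Chac1: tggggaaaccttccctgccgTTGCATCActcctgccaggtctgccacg
Nupr1: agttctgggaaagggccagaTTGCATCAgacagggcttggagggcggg
Herpud1: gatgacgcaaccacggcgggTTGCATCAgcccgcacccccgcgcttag
Atf3: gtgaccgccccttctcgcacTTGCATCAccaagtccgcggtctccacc
Asns: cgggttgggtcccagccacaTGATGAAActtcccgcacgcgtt
Slc7a11: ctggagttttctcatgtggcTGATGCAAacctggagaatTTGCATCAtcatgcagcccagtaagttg
These stretches lie at chr2:119351029-119351076 (plus strand) for Chac1, chr7:126625553-126625600 (minus) for Nupr1, chr8:94386297-94386344 (plus) for Herpud1, chr1:191183416-191183463 (minus) for Atf3, chr6:7693210-7693252 (minus) for Asns and chr3:50443633-50443699 (minus) for Slc7a11. The match begins 193 bases before the transcript start in Chac1, 110 in Nupr1 and Atf3, 112 in Herpud1 and 23 in Asns, and Slc7a11 has 2 matches, at 66 and 47. The letters of the ER stress element (CCAAT, any 9 bases, then CCACG, on either strand) were in the window of 0 members and of 0.137% of all genes.

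The first comparison sets E3 beside E1 and E2. Most members were lower in E3, in the control and the GemKD culture alike, with the largest differences in the stress effectors Chac1 (3.59-fold) and Ddit3 (3.24-fold) and smaller ones in the enzymes of amino acid synthesis. Each experiment was represented by the mean log2(signal + 16) of its 2 arrays and tested over all genes with limma, so that folds are on that scale. E3 is 1 experiment, singled out because its arrays were known to stand apart, and the fit takes the spread between E1 and E2 as the error of E3 as well. Of 34 members, 29 were called lower in E3 and 1, Phgdh, higher (adjusted p under 0.05). Over all genes 23.6% were called lower and 13% higher, and 28.2% of the 11191 genes above the 50th percentile of signal were called lower. Most members were far brighter than that limit, and the share among genes of their own brightness was not counted. Of the members 7 were called and at least 2-fold lower (Chac1, Ddit3, Atf5, Nupr1, Trib3, Slc6a9 and Herpud1), as were 1.73% of all genes. Slc6a9 and Herpud1 sat at that limit, and both fell short of it after quantile normalisation (-0.94 each). Both E3 arrays lay below the other 4 for 28 members, where 31% of all genes did so, and above them for Phgdh, where 19.7% did. The median difference was -0.41 over the members and -0.04 over all genes tested. A fit without an intensity trend called 15 members, all lower, and 1849 genes. Its adjusted p was 0.032 for Chac1, Ddit3, Atf5, Nupr1, Trib3 and Herpud1, so the far smaller values below rest on spread pooled over genes. The same RNA difference could come from fewer cells that express these genes or from less RNA per cell, which cannot be told apart in bulk samples.

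**Figure D1:**
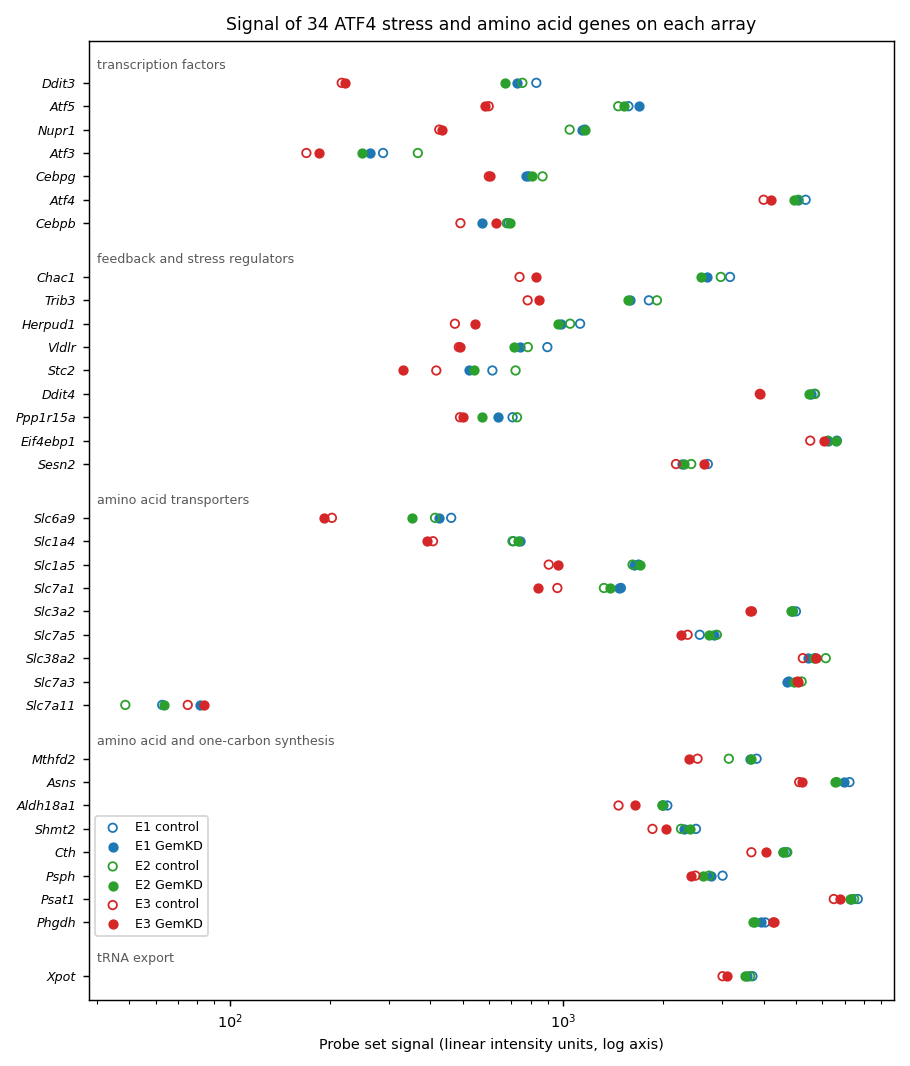
Probe set signal (linear intensity units on a log axis) of the 34 members on each of the 6 arrays, grouped by role, with open circles for controls, filled circles for GemKD and 1 colour per experiment. The red E3 circles lie to the left of the blue E1 and green E2 circles for 28 members and overlap them for Cebpb, Sesn2, Slc7a11, Slc7a3 and Slc38a2.

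Among the 7 transcription factors all were called lower in E3. Ddit3, the proapoptotic C/EBP relative CHOP, had signals of 832 and 756 in the controls of E1 and E2 and 730 and 671 in their GemKD arrays, against 217 in the control and 221 in the GemKD array of E3. Its E3 difference was -1.69 on the log2 scale (95% interval -1.87 to -1.52, limma adjusted p = 4.67e-09). Atf5, a close relative of ATF4 that is translated in the same stress-dependent way, had 1572 and 1465 in the controls and 1696 and 1523 in the GemKD arrays of E1 and E2, against 599 and 585 in E3. For both genes the 4 arrays of E1 and E2 formed 1 group and the 2 of E3 another, with a gap far wider than the spread within either. The Atf5 difference was -1.38 (-1.52 to -1.23, adjusted p = 3.97e-09).

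Nupr1, a small chromatin-associated stress protein, had controls of 1163 and 1047 and GemKD arrays of 1142 and 1162 in E1 and E2, and 425 and 434 in the control and GemKD array of E3 (-1.36, 95% interval -1.50 to -1.21, adjusted p = 4.88e-09). Atf3, an immediate stress factor of the same bZIP class, was dimmer and more variable, with 289 and 367 in the controls, 264 and 249.8 in the GemKD arrays, and 169.9 and 185 in E3 (-0.66, -0.88 to -0.44, adjusted p = 2.09e-04). Atf4 itself differed less than these 4. Its signals were 5348 and 5086 in the controls and 5065 and 4949.7 in the GemKD arrays of E1 and E2, and 3999 and 4207 in E3, a 1.24-fold difference (-0.32, -0.40 to -0.23, adjusted p = 3.26e-05). The groups did not overlap, but the Atf4 call was lost without an intensity trend (adjusted p = 0.0737) and when all its probe sets were averaged (0.221), a mean that takes in another probe set that lay below the filter. Of the C/EBP partners, Cebpg had -0.42 and Cebpb -0.23, and for Cebpb the GemKD array of E3 (629) lay within the range of E1 and E2. The Cebpb call (adjusted p = 0.0324) was lost when the 6 arrays replaced experiment means (0.102), which left 28 members called lower.

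The feedback and stress regulators held 9 members, of which 8 were called lower. Chac1, which degrades glutathione and is among the most inducible genes of the pathway, had 3172 and 2975 in the controls and 2708 and 2598 in the GemKD arrays of E1 and E2, against 741 and 828 in E3. That is 27.4% of the mean signal of E1 and E2 (log2 -1.84, 95% interval -1.96 to -1.73, adjusted p = 6.10e-11), the largest difference of the 34. Trib3, a pseudokinase that binds and restrains ATF4, had 1810.1 and 1914 in the controls and 1585 and 1562 in the GemKD arrays, against 784 and 849 in E3 (-1.05, -1.18 to -0.93, adjusted p = 1.13e-08). Herpud1, an ER membrane protein of protein degradation, had 1126 and 1051 in the controls and 986 and 969 in the GemKD arrays, against 474 and 543 in E3 (-1.0, -1.15 to -0.86, adjusted p = 1.02e-07). In all 3 genes the E3 arrays stood clear of the others, and the GemKD array was below its control in E1 and E2 and above it in E3.

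Vldlr, a lipoprotein receptor, and Stc2, a secreted glycoprotein, had differences of -0.66 and -0.65 (adjusted p = 1.53e-05 and 3.55e-05). Vldlr was at 898 and 785 in the controls, 741 and 715 in the GemKD arrays, and 487 and 492 in E3. Ddit4, an inhibitor of mTORC1 that also responds to hypoxia, was bright, at 5682 and 5707 in the controls and 5543 and 5460.4 in the GemKD arrays, and at 3897 and 3893 in E3 (-0.52, adjusted p = 1.78e-07). Its 2 E3 arrays were nearly equal and the other 4 spanned a narrow range. Ppp1r15a, which brings the phosphatase to eIF2 and ends the response, had -0.40, and the translation repressor gene Eif4ebp1 had -0.15. Sesn2, a leucine sensor and p53 target, was not called (-0.01, 95% interval -0.12 to 0.09). The E3 control (2184) was just below the 2279 to 2721 of E1 and E2, and the E3 GemKD array (2647) was inside that range. A dimmer probe set of Sesn2 differed more (-0.24), at 1472 and 1356 in the control and GemKD array of E3 and 1434 to 1848 in E1 and E2.

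Of 9 amino acid transporters, 6 were called lower and 3 were not called. The glycine transporter gene Slc6a9 had 462 and 413 in the controls and 425 and 352 in the GemKD arrays of E1 and E2, against 203 and 192 in E3 (-1.0, 95% interval -1.22 to -0.78, adjusted p = 5.03e-06). Slc1a4, a neutral amino acid exchanger, had 710.3 and 706 in the controls, 743 and 731 in the GemKD arrays, and 408 and 390.1 in E3 (-0.83, adjusted p = 1.26e-06). The glutamine transporter gene Slc1a5 had 1686 and 1618 in the controls, 1634 and 1702 in the GemKD arrays, and 906 and 967 in E3 (-0.82, adjusted p = 1.13e-07). These 3 had no overlap between E3 and the rest. Slc1a4 and Slc1a5 had little spread among the 4 arrays of E1 and E2, while Slc6a9 differed by -0.21 between E2 and E1.

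The arginine and lysine transporter gene Slc7a1 had -0.64, and the 2 chains of the large neutral amino acid transporter differed less, with Slc3a2 at -0.42 and Slc7a5 at -0.25. Slc7a3, a cationic amino acid transporter gene expressed at 4718 to 5202 in E1 and E2, stood at 5064 and 5056 in E3 and was not called (0.05, -0.05 to 0.14). Slc38a2, which imports small neutral amino acids, was not called either (-0.06, -0.15 to 0.02). Its second brightest probe set had a difference of 0.38, opposite in sign. The cystine importer gene Slc7a11 was dim, at 62.8 and 48.6 in the controls and 81.4 and 63.5 in the GemKD arrays of E1 and E2 and at 74.9 and 83.5 in E3 (0.26, -0.10 to 0.62, adjusted p = 0.245). The groups of Slc7a11 overlapped, and its wide interval covers both a small decrease and a 1.5-fold increase.

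Enzymes of amino acid and one-carbon synthesis made up 9 members, of which 8 were measured, and their differences were smaller than those of the groups above, with a median of -0.27. The asparagine synthetase gene Asns had 7239 and 6623 in the controls and 6979 and 6572 in the GemKD arrays, and 5115 and 5211 in E3 (-0.41, 95% interval -0.50 to -0.31, adjusted p = 6.99e-06; 0.0645 without an intensity trend). The mitochondrial folate enzyme gene Mthfd2 had -0.53 and its partner Shmt2 -0.28. The proline synthesis gene Aldh18a1 had -0.36 and the cysteine synthesis gene Cth -0.26.

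The 3 serine synthesis genes differed in direction. Psph, the last enzyme of the pathway, had 3013 and 2742 in the controls and 2786 and 2640.4 in the GemKD arrays of E1 and E2, and 2497 and 2423 in the control and GemKD array of E3. Psph had a difference of -0.18 and Psat1 of -0.16, both called lower, while Phgdh, the first enzyme of the same pathway, was the member called higher, from 3716 to 4046 in E1 and E2 to 4278 and 4302 in E3 (0.15, 95% interval 0.05 to 0.25, adjusted p = 0.0179). The Psph call was lost without the filter (adjusted p = 0.0685), without an intensity trend (0.217) and with control arrays alone (0.138), and no member was called higher in these 3 fits or when all probe sets were averaged. Xpot, the tRNA exporter, had -0.24 (adjusted p = 5.72e-04).

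**Figure D2:**
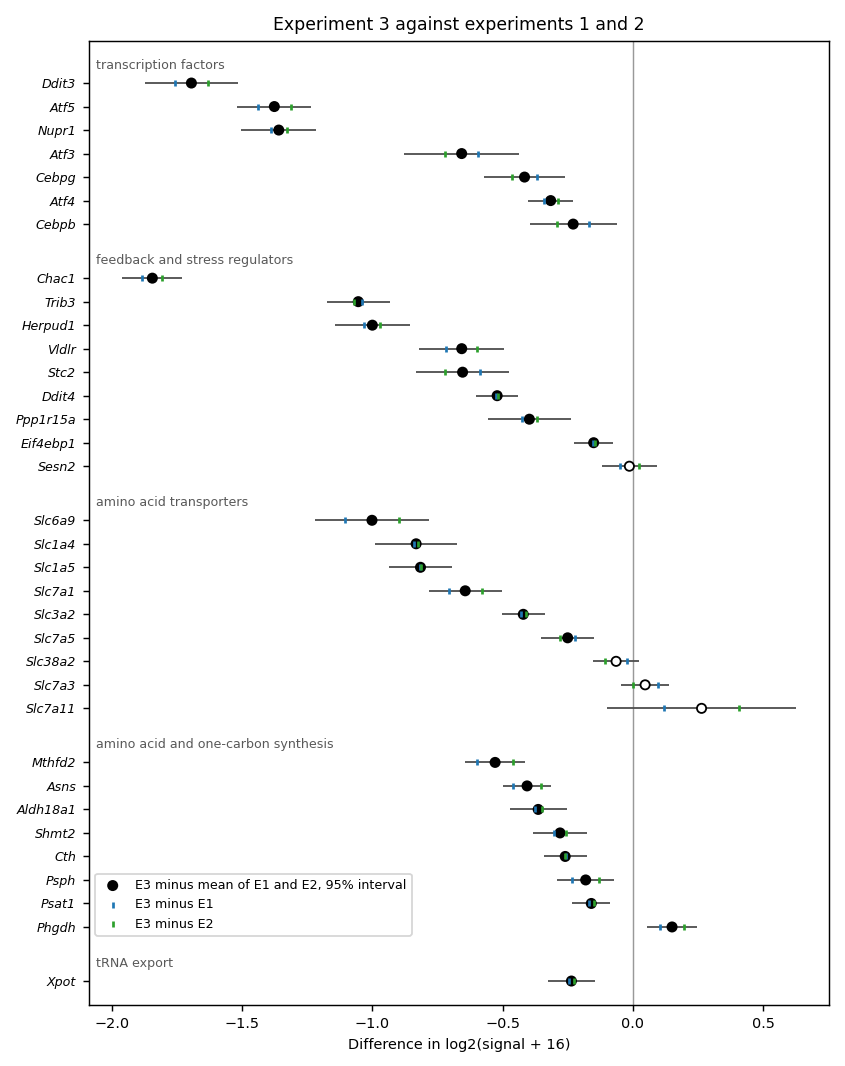
Difference in log2(signal + 16) between E3 and the mean of E1 and E2 for each member, with its 95% interval (line), filled where the limma adjusted p was under 0.05 and open otherwise. Coloured ticks give E3 minus E1 (blue) and E3 minus E2 (green), and Chac1 lies farthest left at -1.84.

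The members were also lower in E3 when it was set against 1 experiment or compared within 1 arm. The median over the members was -0.43 against E1 alone, which carried the same hairpin as E3, and -0.39 against E2 alone. The median was -0.46 with control arrays alone and -0.38 with GemKD arrays alone. Between E2 and E1 the members differed by a median of -0.04, where all genes had -0.008. They differed by no more than 0.15 for 32 of 34, which was not counted over all genes. Of the members called in E3, other probe sets above the filter numbered 37, and all 37 had the sign of the brightest one. Their size varied. Those of Ddit3 (-0.78), Slc6a9 (-0.53) and Slc1a5 (-0.32) differed less than the brightest, and those of Herpud1 (-1.21), Trib3 (-1.17) and Nupr1 (-1.45) more. Those of Slc1a4 (-0.43 and -0.91), Stc2 (-0.85 and -0.35) and Vldlr (-0.91 to -0.16) lay on both sides of the brightest. With the mean of all probe sets, Slc1a5 had -0.57 and Slc6a9 -0.76, so the size of a difference depends on the probe set used.

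Genes next to the members in the pathway were taken from lists chosen by name, and their counts in E3 stand against the 23.6% of all genes called lower and the 13% called higher. Among 19 cytosolic aminoacyl-tRNA synthetases, which charge tRNAs and include known ATF4 targets, 11 were called lower and 1 higher, with a median of -0.18. The largest were Cars (-0.48, adjusted p = 1.33e-05) and Aars (-0.44, adjusted p = 1.12e-06). Of 13 genes for the eIF2 kinases, eIF2B and their regulators, 3 were called lower, a share near that of all genes, and 3 higher, with a median of 0.03. Ppp1r15b, the constitutive partner of the eIF2 phosphatase, had -0.35, and Impact, an inhibitor of the amino acid sensing kinase GCN2, had 0.39.

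Of 20 ER chaperone and ER stress genes, 8 were called lower and 1 higher, with a median of -0.11. Sel1l of ER-associated degradation (-0.58, adjusted p = 3.07e-05) and the transcription factor gene Xbp1 (-0.54, adjusted p = 3.21e-06) differed most, while the main ER chaperone Hspa5 stood at 6933 to 7544 in E1 and E2 and at 7289 and 7062 in E3 (-0.01, adjusted p = 0.795). Of 9 mitochondrial stress genes, 1 was called in each direction, under the share of all genes, with a range of -0.24 (Fgf21, adjusted p = 0.447) to 0.12. Hspe1 was higher by that 0.12 and Hspa9 had -0.12, both mitochondrial chaperones, and the protease gene Oma1 had -0.18 (adjusted p = 0.0508). Of 12 other one-carbon and amino acid enzymes, 4 were called lower and 2 higher, led by Gpt2 (-0.49), an alanine transaminase and known ATF4 target, and Mthfd2l (1.0).

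Targets of NRF2, the factor of the oxidative stress response, went the other way. All 8 that were tested were called higher in E3, with a median of 0.44, where 13% of all genes were called higher. Nqo1, a quinone reductase, had 429 and 517 in the controls and 438 and 439 in the GemKD arrays of E1 and E2, against 1092 and 1028 in E3 (1.19, 2.29-fold, adjusted p = 8.89e-08). The glutathione reductase gene Gsr had 0.55 (adjusted p = 7.50e-06) and the glutathione synthesis gene Gclm 0.46 (adjusted p = 1.21e-06). Slc7a11, which both ATF4 and NRF2 are known to induce, was not called in either direction, as given above.

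**Figure D3:**
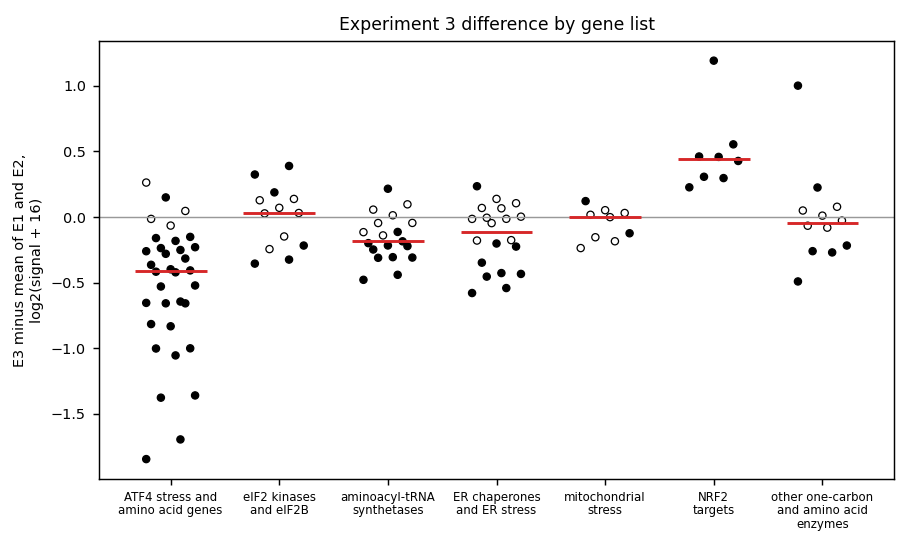
Difference in log2(signal + 16) between E3 and the mean of E1 and E2 for each tested gene of 7 lists, filled where the limma adjusted p was under 0.05, with a red line at the median of the list. The median is -0.41 for the ATF4 stress and amino acid genes and 0.44 for the NRF2 targets.

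Markers of cell state also differed between E3 and the other experiments, and their part in the result was not tested. Of 5 neural progenitor markers 4 were called lower, where 23.6% of all genes were called lower and 13% higher. The summed signal of these 5 markers was 9291 to 9645 in E1 and E2 and 6109 to 6537 in E3. Of 4 naive pluripotency markers 3 were called lower (6294 to 8179 against 2569.6 to 2928), and all 3 primed epiblast markers were higher (4241 to 5542 against 9516 to 9625). Sox1, a defining marker of the labelled neurectoderm, had 2108 to 2443 in E1 and E2 and 523 and 577 in E3 (-2.04). Pax6 had -2.24 and Zic1 -0.85, while Sox2 differed little (-0.18) and Nes was not called (0.10, limma adjusted p = 0.468). Most of the summed neural signal was that of Sox2, at 5780.5 to 6009 in E1 and E2 and 5033 and 5334 in E3. Of 4 endoderm and 2 mesoderm markers 0 were called, with sums of 188.3 to 278 and 583 to 735 in E1 and E2 and 224 to 241 and 529 to 579.5 in E3. Of 3 fibroblast markers 2 were called lower and 1 higher (707 to 734 against 405 to 441), and the neuronal marker Tubb3 was called higher. No marker was at 0, the lowest signal being 25 for Foxa2.

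The second comparison asks whether the knockdown changed these genes. No member passed, and the estimates were small, between -0.31 for Stc2 and 0.25 for Slc7a11. Limma called 0 of 34 members without regard to experiment, with 0.00705% of all genes called. At an unadjusted p under 0.05 there were 0 members and 0.86% of all genes. In this fit the E3 difference adds to the error, as in the SE of Chac1 (0.65, and 0.069 with the block). With the experiment as a block limma again called 0, with 0.0352% of all genes called, and 1 member (Stc2) and 4.72% of all genes had an unadjusted p under 0.05. The 3 GemKD arrays lay below all 3 controls for 0 members and above them for 0, as against 2.24% and 2.07% of all genes. For Phgdh and the 28 members with both E3 arrays below the other 4, the E3 difference alone prevents such a separation. These counts therefore say little about the knockdown. The median log2 fold change was -0.02 over the members and 0.002 over all genes. It stayed between -0.16 and 0.10 when any 1 array was left out without the block. The median was positive without the control of E1 (0.07), the control of E2 (0.05) or the GemKD array of E3 (0.10). It was -0.09, -0.09 and -0.16 without the GemKD array of E1, that of E2 or the control of E3. Such a fit has unequal experiments in the 2 arms, so the E3 difference enters its median, and these shifts do not measure the knockdown response. Within E1, E2 and E3 the median ratios of the members were -0.06, -0.05 and 0.03. With the block, the 95% interval of a member had a median half-width of 0.13, and the intervals reached from -0.49 for Stc2 to 0.55 for Slc7a11.

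The 6 members lower in all 3 experiments were Ddit4, Stc2, Slc7a3, Slc3a2, Slc6a9 and Psph, 17.6% of the members where 11.7% of all genes were lower in all 3. Stc2 had 614, 721 and 417 in the controls of E1, E2 and E3 and 523, 540.3 and 332 in the GemKD arrays. It was below its own control each time, and the groups overlapped. Its log2 fold change was -0.31 (SE 0.25, adjusted p = 0.9998; blocked 95% interval -0.49 to -0.14, blocked adjusted p = 0.531). Its other probe sets above the filter did not show this, with values of -0.02 and 0.05, and the mean of all its probe sets gave -0.09. Slc6a9 had a log2 fold change of -0.14 (-0.07 in its other probe set, which was below its control in E2 alone), Psph -0.07, Ddit4 -0.03, Slc7a3 -0.03 and Slc3a2 -0.02, none past the threshold.

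Slc7a11 was the 1 member higher in all 3 experiments, 2.94% of the members against 12.2% of all genes. Its controls were at 62.8, 48.6 and 74.9 in E1, E2 and E3 and its GemKD arrays at 81.4, 63.5 and 83.5 (log2 0.25, SE 0.18, adjusted p = 0.9998; blocked 95% interval -0.06 to 0.55). Each GemKD array was above its own control, and the groups overlapped. A dimmer probe set of Slc7a11, with a mean signal of 24.1, had -0.16.

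**Figure D4:**
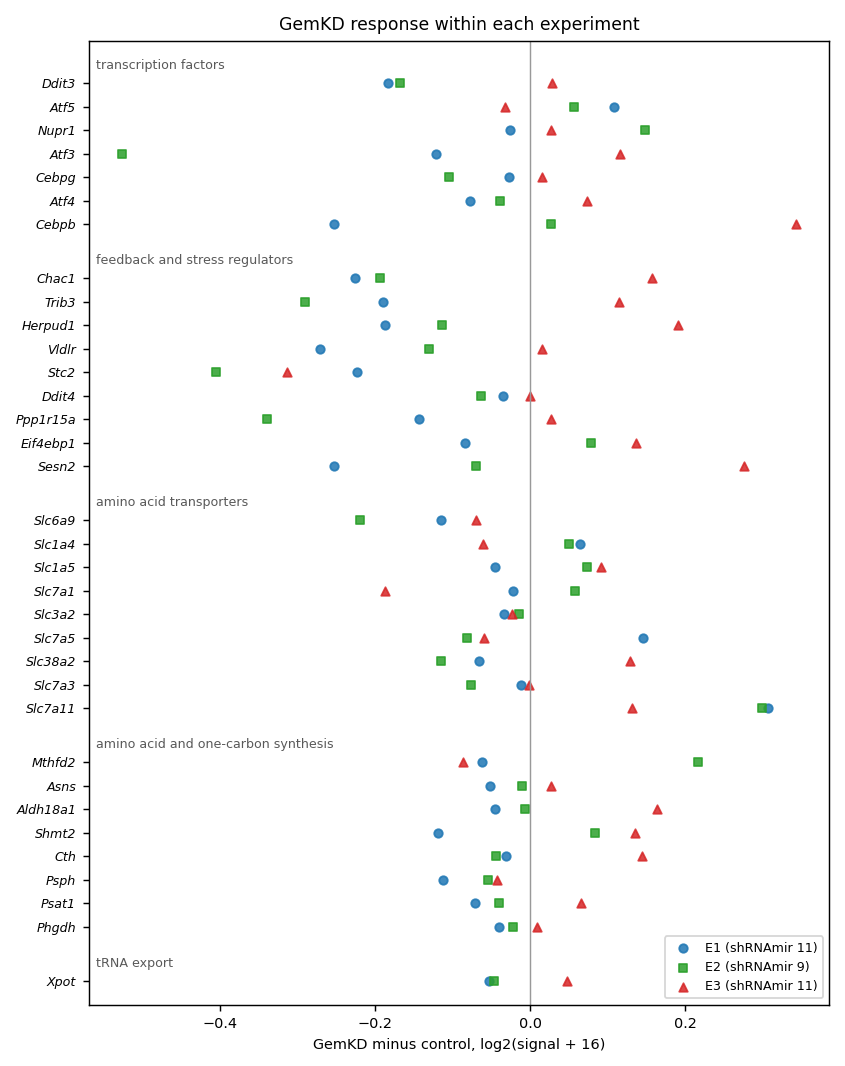
GemKD minus control in log2(signal + 16) within each experiment for each member, with blue circles for E1, green squares for E2 and red triangles for E3. Of 34 members, 30 lie below 0 in E1, 24 in E2 and 11 in E3.

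Within the experiments the direction differed. GemKD was below its control for 30 members in E1, 24 in E2 and 11 in E3, where 52.6%, 56.3% and 42.3% of all genes were. Each ratio sets the GemKD array of an experiment against its own control array, without replicates. The members were chosen from the same pathway and may vary together, so they are not independent observations. Such counts of members, here and below, are descriptions beside the shares of all genes and not tests. Lower in both E1 and E2 were 23 members, 67.6%, against 32.3% of all genes and 34.2% of those above the 50th percentile. Lower in both E1 and E2 but higher in E3 were 17 members, 50%, against 20.5% and 22.9%. Chac1 had ratios of -0.23 and -0.19 in E1 and E2 and 0.16 in E3. Trib3 had -0.19, -0.29 and 0.11, Herpud1 -0.19, -0.11 and 0.19, and Sesn2 -0.25, -0.07 and 0.28. The other probe sets of Trib3 and Herpud1 had the same directions, but that of Sesn2 did not. Its GemKD and control signals were 1711 and 1712 in E1, 1848 and 1434 in E2, and 1356 and 1472 in E3.

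The differences within E1 and E2 were small. The feedback and stress regulators had medians of -0.19 and -0.13, with 8 of 9 lower in both experiments, and they made up 8 of the 23 members with that pattern. When E1 and E2 were fitted alone with the block, limma called 0 members, with 0.197% of all genes called. At an unadjusted p under 0.05 there were 10 members, 29.4%, against 10.3% of all genes: Atf3, Ddit3, Chac1, Trib3, Sesn2, Ppp1r15a, Herpud1, Stc2, Vldlr and Slc38a2. As the members are not independent observations, the excess over all genes is a description only. For Ddit3, Sesn2, Stc2, Vldlr and Slc38a2, another probe set above the filter was higher in GemKD than in its control in E1 or E2. Those of Trib3 and Herpud1 were lower in both. The amino acid synthesis genes stayed closer to their controls, with medians of -0.06 in E1, -0.02 in E2 and 0.05 in E3.

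Whether the GemKD response of E3 differed from that of E1 and E2 was tested with an interaction term, a test chosen after the values were seen. It called 0 members and 0.0141% of all genes, with 8 members (23.5%) and 13.1% of all genes at an unadjusted p under 0.05. The lowest adjusted p among the members were 0.139 for Sesn2 (difference 0.44, SE 0.097) and 0.179 for Chac1 (0.37, SE 0.094). The other probe set of Sesn2 went the other way, as given above. The hairpins were compared in the same way, shRNAmir 9 against shRNAmir 11. Limma called 0 members and 0.317% of all genes, with 2 members, Atf3 and Mthfd2, and 3.7% of all genes at an unadjusted p under 0.05. Mthfd2 had ratios of -0.06 and -0.09 with shRNAmir 11 and 0.22 with shRNAmir 9 (adjusted p = 0.623). Its other probe set did not show this, with GemKD and control signals of 2916 and 2981 in E2, 2788 and 2952 in E1, and 2211 and 2207 in E3. Only E2 carried shRNAmir 9, so hairpin and experiment cannot be told apart.

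The other lists of the pathway also had no gene called for GemKD with or without the block. Median log2 fold changes were 0.03 for the eIF2 kinases and eIF2B, -0.005 for the aminoacyl-tRNA synthetases, 0.02 for the ER stress genes, -0.02 for the mitochondrial stress genes, -0.02 for the NRF2 targets and -0.04 for the other one-carbon and amino acid enzymes. The largest single values were -0.18 for Eif2b2 and -0.14 for Eif2b4, both subunits of eIF2B, 0.12 for Vars and -0.11 for Farsb among the synthetases, and 0.12 for Sdf2l1 and 0.10 for Hyou1 among the ER genes. Clpp and Oma1 of the mitochondrial list had -0.06 and -0.05, and Gsr and Nqo1 of the NRF2 list 0.11 and -0.09. Among the other enzymes Aldh1l2 had -0.50 and Mthfd2l -0.35.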

How the data were processed

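Linear intensity values for 45037 probe sets on 6 Affymetrix Mouse Genome 430 2.0 arrays were deposited by the authors. How they were background corrected and normalised is not given in the sources used here. Column medians were alike, and no further scaling was applied. GEO's platform annotation gave the gene names. Each gene was its brightest probe set of 1 symbol, on the log2(signal + 16) scale. The filter kept the 14187 genes whose mean exceeded the 30th percentile over probe sets, which corresponds to a signal of 19.5. Tests were two-sided, with limma 3.58.1 in R 4.3.3 (lmFit, eBayes with trend) and Benjamini-Hochberg adjustment over all genes. The main GemKD fit had no block, and the alternative fit blocked on experiment. The design text calls the experiments independent, so experiment numbers pair the arrays, and same-numbered arrays had deviations from their group means that correlated with r of 0.49, 0.47 and 0.72 in experiments 1, 2 and 3. Arrays of E1 and E2 with different numbers correlated nearly as much (0.42 and 0.32), and those of E3 with either correlated negatively (-0.61 to -0.49), so the check mostly shows E3 standing apart. E3 was compared on experiment means, and its GemKD response by an interaction term added after the data were seen. P-values measure the spread between these experiments only. In the E3 fit, with 3 experiment means, that spread comes mostly from pooling over all genes and little from the gene itself. The fits were also run on simulated data. For the E3 fit all 3 simulated experiment means had the spread between E1 and E2, so the simulation cannot check that this spread holds for E3.

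The members, lists and the comparison of E3 were chosen with earlier results of these data known. Values on every array are given for Atf4, Ddit3, Asns, Trib3, Chac1 and Slc7a11, for up to 12 called members by size, for the 6 members with the largest E3 difference and for the 5 with the largest GemKD change of 1 sign. Of each other pathway list, the 2 genes with the largest value in each comparison are named. The cell type marker lists did not follow this rule and are given mainly by counts and summed signals in E3. Other genes given values (Hspa5, Hspe1, Hspa9, Gclm, Sox1, Sox2, Pax6, Zic1, Nes, Foxa2 and Tubb3) were picked with their values in view. The alternatives run were quantile normalisation, no filter, a 50th percentile filter, the mean of all probe sets, a pseudocount of 1 or 64, no intensity trend, 1 arm alone, 6 arrays in place of experiment means, and leaving out arrays or experiments.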

Additional observations from a re-analysis of the deposited data

How the results depend on the processing

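For GemKD against control, 0 members were called under every alternative run, and over all genes limma called 1 gene, 5 with the experiment as a block and 0 without an intensity trend. Leaving out arrays or experiments gave 0 to 3 genes without the block and 28, 29 and 75 with the block on 2 experiments (without E3, E2 and E1). The median of the members ranged from -0.16 to 0.10 when 1 array or 1 experiment was left out, was 0.002 with the mean of all probe sets, and the block changed no call of a member. For E3, the members called were 30, and 26 to 30 under the alternatives other than no intensity trend, which gave 15. Over all genes the count was 5199, 1849 without an intensity trend and 2162 with control arrays alone. The median of the members was -0.41, -0.37 after quantile normalisation, -0.46 with control arrays alone and -0.38 with GemKD arrays alone, and -0.43 to -0.39 when E1 or E2 was left out. The hairpin comparison called 45 genes, 3 without the filter and 0 without an intensity trend, and 0 members under each alternative run for it. With 1 array left out and no block, the E3 difference enters the GemKD median, as given above. The cause of the other shifts was not tested. Of 204 values of single named members in the E3 comparison, 198 kept their direction and their side of the threshold and 6, of Atf4, Asns and Psph, lost the call. Dim signal limits Slc7a11 most.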

Other observations

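Aldh1l2, a mitochondrial formyltetrahydrofolate dehydrogenase and known ATF4 target, was lower in GemKD in all 3 experiments, with controls at 157, 193 and 201 and GemKD arrays at 140.2, 126 and 109.5 in E1, E2 and E3. All 3 GemKD arrays lay below all 3 controls, as for 2.24% of all genes, and the log2 fold change of -0.50 did not pass limma with the block (adjusted p = 0.531). Mthfd2l, a relative of Mthfd2 that is not a member, was higher in E3, at 258 and 249.9 against 87.5 to 149.3 in E1 and E2 (log2 1.0, adjusted p = 2.71e-05), while Mthfd2 was lower there by 0.53 on the log2 scale.

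The ATF4 element letters were also set beside the E3 difference. Over all tested genes with a promoter window, the median E3 difference was -0.07 for the 334 with a match and -0.04 for the 11079 without. Among the members it was -0.83 for the 9 tested with a match, from -1.84 for Chac1 to 0.26 for Slc7a11, and -0.38 for the 20 without, from -1.69 for Ddit3 to 0.15 for Phgdh. These are descriptions of lists chosen by name and were given no test.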
